A study of Mus musculus with 7 samples.

Results

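The selectins and endothelial adhesion molecules are the proteins that let a leukocyte leave the blood, and 9 of their genes were followed here among the 57010 gene identifiers of an adipocyte RNA-Seq count table. They were taken by gene symbol, by a rule that uses no measured value but was set with earlier results of these data known, and comprise the selectins Sele and Selp, the selectin ligand Selplg, the immunoglobulin family adhesion molecules Icam1, Vcam1 and Madcam1, and the junctional adhesion molecules F11r, Jam2 and Jam3. Counts came from white adipocytes of perigonadal fat, freed with collagenase, in 20-week-old male mice that ate Teklad LM-485 chow and received no treatment. The 3 FFA2 fl/fl libraries (floxed controls) carry floxed alleles of the free fatty acid receptor FFA2 without Cre, and the 4 Adipoq-F2-KO libraries carry the same floxed alleles with Adiponectin-Cre. Littermates of both genotypes shared cages, which the study describes only up to an age younger than that sampled here. The adiponectin promoter restricts Cre to adipocytes, so the other cells of the fat pad keep the receptor. The comparison of the genotypes addresses how the loss of FFA2 in adipocytes alters transcription on a standard diet. No group carried Cre alone, so an effect of Cre itself cannot be told apart from the loss of FFA2. The labels do not say whether animals were pooled, and p-values measure the spread between these libraries.

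Leukocytes leave the circulation in steps. E-selectin and P-selectin on activated endothelium catch carbohydrate-bearing ligands such as PSGL-1, the product of Selplg, and slow the cell to a roll, after which leukocyte integrins bind ICAM-1, VCAM-1 or MAdCAM-1 and hold it, and junctional adhesion molecules take part in its passage between endothelial cells. E-selectin, ICAM-1 and VCAM-1 are classical targets of tumor necrosis factor and NF-kB in endothelium, while P-selectin is also stored in endothelial and platelet granules for rapid release. In obese fat these proteins are known for their part in the recruitment of monocytes and neutrophils.

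The stretches of promoter that precede Sele, Selp and Icam1, the 3 genes with the largest fold changes described below, were read from RefSeq on GRCm38.p6, all from the plus strand and each ending at the base before RefSeq's start of the gene. Distances below count from that start, which for Icam1 lies upstream of the GRCm38 gene annotation's start at base 21015985. They cover chr1:164048034-164048233 for Sele, chr1:164115064-164115263 for Selp and chr9:21015740-21015939 for Icam1. Capitals mark matches on either strand to a kappa-B form (GGNNNTTCC), an AP-1 form (TGANTCA) or a TATA box (TATAAA), and no matches overlap one another.
Sele: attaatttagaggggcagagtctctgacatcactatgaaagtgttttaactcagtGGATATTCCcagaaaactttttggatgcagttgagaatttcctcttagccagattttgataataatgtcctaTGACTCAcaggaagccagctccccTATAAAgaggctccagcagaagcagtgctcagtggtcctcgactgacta
Selp: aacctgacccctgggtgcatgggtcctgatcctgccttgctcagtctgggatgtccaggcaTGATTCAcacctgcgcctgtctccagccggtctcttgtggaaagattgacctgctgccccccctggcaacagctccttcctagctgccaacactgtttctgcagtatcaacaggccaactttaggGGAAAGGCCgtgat
Icam1: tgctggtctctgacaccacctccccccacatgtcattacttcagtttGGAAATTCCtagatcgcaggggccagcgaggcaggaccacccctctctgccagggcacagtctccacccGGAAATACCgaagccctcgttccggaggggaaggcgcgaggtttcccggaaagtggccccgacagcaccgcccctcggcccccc
The Sele stretch holds a kappa-B match that begins 145 bases before the start, an AP-1 match at 73 bases and a TATA box at 49 bases. The Selp stretch holds an AP-1 match at 139 bases and a reverse-strand kappa-B match at 14 bases before the start. Icam1 has kappa-B matches at 153 bases and, on the reverse strand, at 84 bases before the start. Among 32851 RefSeq windows of 300 bases around gene starts, 18.5% hold the kappa-B form, 7.81% the AP-1 form and 13.6% the TATA box, so these letters are common and a match describes the sequence without marking a bound site. Of the 9 genes, 5 had a window in the RefSeq table. Beside the 3 printed, Madcam1 has reverse-strand kappa-B matches at 83 and 70 bases before the start, and F11r has an AP-1 match at 109 bases before it. The windows also run past the start, beyond the printed stretches. There F11r has a kappa-B match from base 30 and Icam1 a TATA box from base 14, counted from the start.

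Levels are given as normalized CPM, a gene's counts relative to its library's total after scaling by TMM (trimmed mean of M-values), and a gene is called where edgeR's adjusted p lies under 0.05. Libraries held 30478997 to 39992605 counts. At this depth, 6 counts, or 3 fragments with both mates counted, correspond to 0.150 to 0.197 CPM, a floor for counting error only. The targeted gene, Ffar2, matched the labels, at 32.0 to 37.5 CPM in floxed controls and 1.15 to 2.58 CPM in Adipoq-F2-KO libraries (log2 fold change -4.36, SE 0.22, edgeR adjusted p = 8e-06). Adipoq was at 3450 to 3760 CPM in controls and 2420 to 3680 CPM in knockouts, while Cdh5 (295 to 418 and 435 to 723 CPM) and Pecam1 (178 to 236 and 248 to 404 CPM), both markers of endothelium, were present in every adipocyte library. In these bulk samples, fewer cells of a type and less RNA per cell cannot be told apart. Genes of the mitochondrial chromosome took 4.41 to 5.77% of control counts and 6.61 to 10.3% of knockout counts. Adipoq-F2-KO 4 stood apart, with the highest mitochondrial share, the lowest Adipoq and the highest Cdh5, and 6.76% of its counts came from the most abundant gene. Germ cell markers summed to 157 CPM in Adipoq-F2-KO 2 against at most 14.9 CPM in any other library, and epithelial and epididymal markers to 53.7 CPM in FFA2 fl/fl 1 against at most 20.9 CPM elsewhere.

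Both selectins of endothelium and most of the adhesion molecules were higher in Adipoq-F2-KO adipocyte libraries, and 2 of the 9 genes passed the test. Sele and Icam1 rose by 3.25-fold and 2.24-fold between group means, and none of the 8 genes that could be tested was lower at an unadjusted edgeR p under 0.05. The 8 tested genes were above the filter level of 0.274 CPM in every library and all had positive log2 fold changes, with a median of 0.67 against 0.00 over the 17039 tested genes. Madcam1 was too low to be tested, with means of 0.134 CPM in controls and 0.0906 CPM in knockouts. The 2 calls among 8 tested genes compare with 0.798% of all tested genes called higher and 0.217% called lower. Every Adipoq-F2-KO library lay above every floxed control for 6 of the 8 genes (Sele, Selp, Selplg, Icam1, Vcam1 and F11r), where 8.86% of all tested genes did so, and 7 of the 8 had an unadjusted p under 0.05 with a higher level, where 10.5% of all tested genes did.

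**Figure D1:**
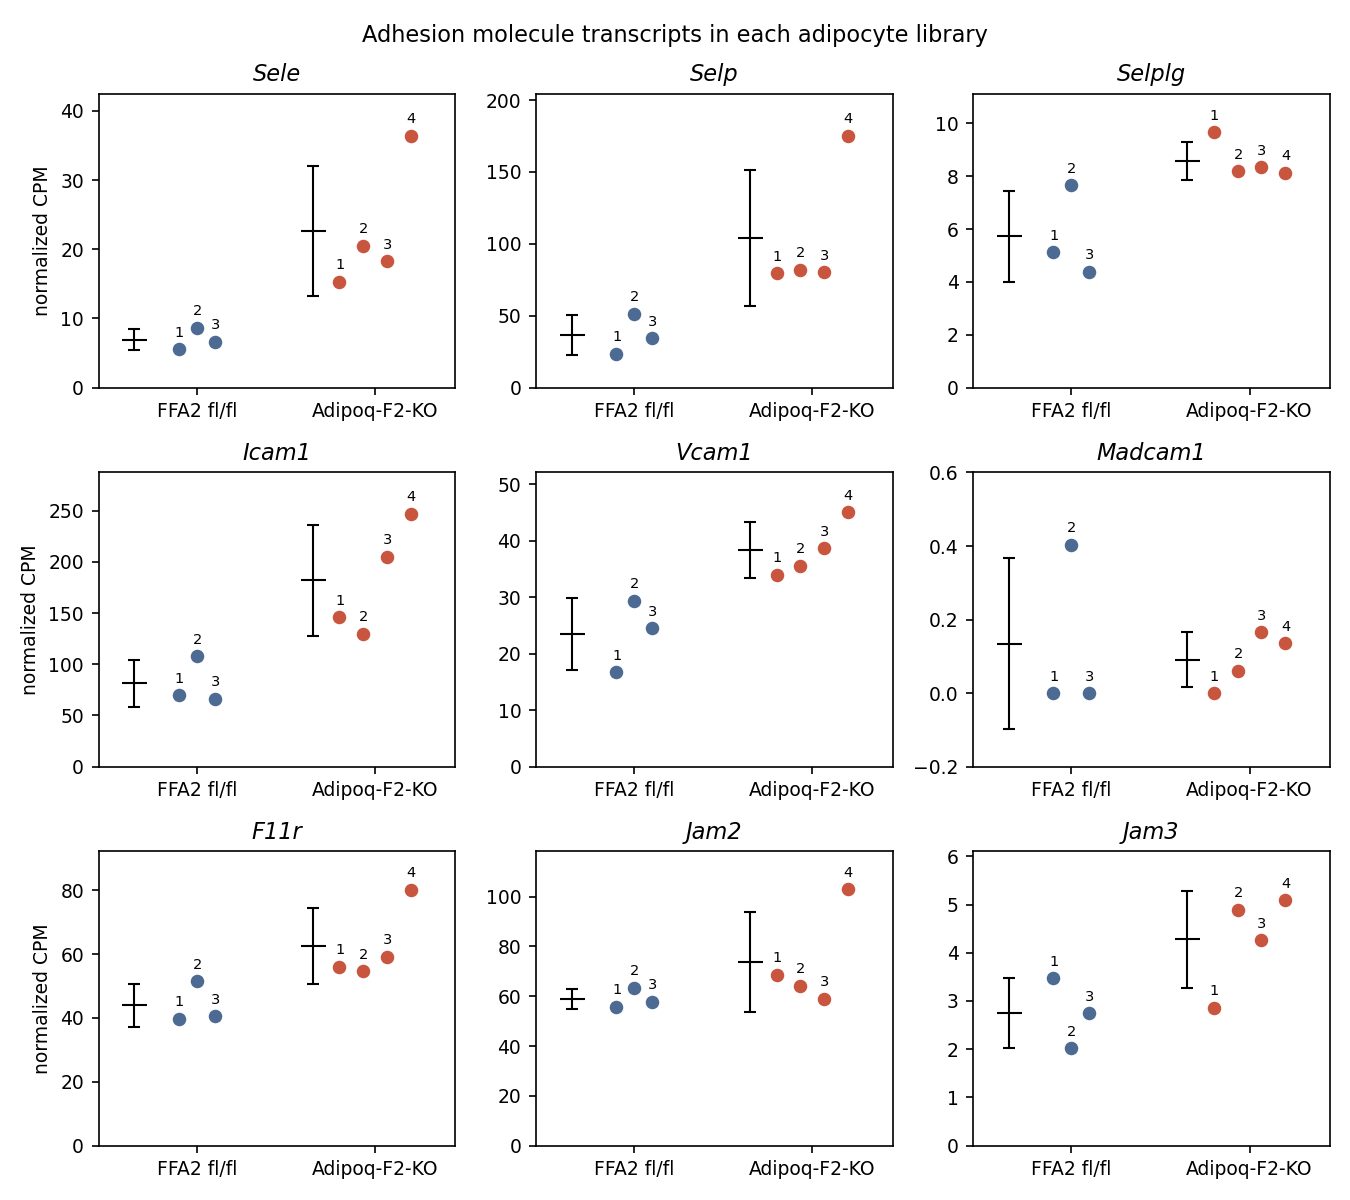
Normalized CPM (vertical axis, linear) of the 9 selectin and adhesion genes in each library, with floxed controls in blue and Adipoq-F2-KO in red, each point numbered by its replicate and black bars giving the mean ± SD of the 3 control or 4 knockout libraries. Adipoq-F2-KO libraries lie above all controls for Sele, Selp, Selplg, Icam1, Vcam1 and F11r, overlap them for Jam2 and Jam3, and Madcam1 stays below 0.5 CPM throughout, on an axis that begins under 0 to show its error bar.

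Sele encodes E-selectin, which is made by activated endothelium (ENSMUSG00000026582, chromosome 1 from 163875773 to 163885246 on the plus strand in the deposited coordinates, which do not match the GRCm38 build named in the submitters' processing notes). Its normalized CPM was 5.58, 8.67 and 6.62 in FFA2 fl/fl 1 to 3, and 15.3, 20.5, 18.3 and 36.4 in Adipoq-F2-KO 1 to 4. The lowest knockout library exceeded the highest control by 6.61 CPM, and Adipoq-F2-KO 4 held the highest level. Group means were 6.96 ± 1.57 CPM (SD, n = 3) and 22.6 ± 9.42 CPM (SD, n = 4). The log2 fold change of 1.70 (SE 0.28) was called, with edgeR's adjusted p = 0.0332, and stood at rank 37 by p among all tested genes. An exact permutation test on the 7 values gave p = 0.0571, where 0.0286 is the smallest p that 3 against 4 allows. The positive difference did not hinge on Adipoq-F2-KO 4, since without it the log2 fold change was 1.37 (edgeR adjusted p = 0.0166). The call was lost without FFA2 fl/fl 1, 2 or 3 (edgeR adjusted p = 0.196, 0.0552 and 0.135) and without Adipoq-F2-KO 2 or 3 (edgeR adjusted p = 0.0578 and 0.0546), with log2 fold changes of 1.56 to 1.89.

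Selp lies close to Sele and encodes P-selectin, which is stored in granules of endothelial cells and platelets (ENSMUSG00000026580, chromosome 1 from 163942833 to 163977595, plus strand). It stood at 23.6, 51.4 and 34.4 CPM in the floxed controls and at 79.4, 81.9, 80.1 and 175 CPM in Adipoq-F2-KO 1 to 4. Adipoq-F2-KO 1 to 3 were close together and Adipoq-F2-KO 4 was far above them, while all 4 lay above the highest control by at least 28.0 CPM. Means were 36.5 ± 14.0 CPM (SD, n = 3) and 104 ± 47.4 CPM (SD, n = 4), a ratio of 2.86. The log2 fold change of 1.51 (SE 0.32) missed the threshold narrowly (edgeR adjusted p = 0.0519), whereas the exact permutation test of this gene alone reached its smallest p, 0.0286. Of 7 fits that each left out a library, only that without Adipoq-F2-KO 4 called Selp (log2 fold change 1.14, edgeR adjusted p = 0.0409). In the others Selp missed the threshold (edgeR adjusted p = 0.0555 to 0.242). With all libraries, Selp passed with DESeq2 (adjusted p = 0.0142) and with limma voom (adjusted p = 0.0402), so its call depends on the model. Antisense genes Gm16587 and Gm16548 share 186 and 438 exonic bases with Selp on the opposite strand and had at most 34 and 15 counts in a library, against 882 to 5166 counts for Selp.

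The proportion of the 2 endothelial selectins to each other overlapped between genotypes. The log2 ratio of Sele to Selp averaged -2.34 in floxed controls and -2.19 in Adipoq-F2-KO libraries, and was not tested.

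Selplg encodes PSGL-1, the leukocyte ligand that selectins bind (ENSMUSG00000048163, chromosome 5 from 113956597 to 113970705, minus strand). Floxed controls had 5.13, 7.66 and 4.39 CPM, and Adipoq-F2-KO 1 to 4 had 9.66, 8.20, 8.35 and 8.14 CPM. All knockouts were higher than all controls, but by only 0.479 CPM at the closest, and here Adipoq-F2-KO 1 rather than 4 was highest. Means were 5.73 ± 1.71 CPM (SD, n = 3) and 8.59 ± 0.719 CPM (SD, n = 4). The log2 fold change of 0.58 (SE 0.20) did not pass (edgeR adjusted p = 0.175, exact permutation p = 0.0286). Since PSGL-1 is a leukocyte protein, Selplg was also set against the summed leukocyte and macrophage markers of the same library, where the log2 ratio was -6.37 ± 0.36 (SD, n = 3) in controls and -6.16 ± 0.18 (SD, n = 4) in knockouts, with overlap.

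Icam1 encodes ICAM-1, the ligand of the leukocyte integrins LFA-1 and Mac-1, found on endothelium, leukocytes and many stimulated cells (ENSMUSG00000037405, chromosome 9 from 20927281 to 20940113, plus strand). Its level was 69.7, 108 and 66.1 CPM in the floxed controls and 146, 130, 205 and 247 CPM in Adipoq-F2-KO 1 to 4. The groups did not overlap, FFA2 fl/fl 2 and Adipoq-F2-KO 2 being the nearest, and Adipoq-F2-KO 3 and 4 were the highest. Means were 81.2 ± 23.2 CPM (SD, n = 3) and 182 ± 54.1 CPM (SD, n = 4). The log2 fold change of 1.16 (SE 0.23) was called (edgeR adjusted p = 0.0464, exact permutation p = 0.0571). Of 7 fits that each left out a library, only that without Adipoq-F2-KO 1 kept the call (edgeR adjusted p = 0.0456). Without FFA2 fl/fl 1, 2 or 3 the edgeR adjusted p was 0.241, 0.0527 and 0.187, and without Adipoq-F2-KO 2, 3 or 4 it was 0.057, 0.0755 and 0.0523, with log2 fold changes of 0.98 to 1.42. Icam2, which endothelium makes constitutively, was named after its values were seen and offered a within-library comparison. The log2 ratio of Icam1 to Icam2 was 2.87, 2.79 and 2.95 in controls and 3.36, 3.34, 3.45 and 3.71 in knockouts, a mean difference of 0.59 without overlap, and was not tested. The share of all tested genes whose ratio to Icam2 did not overlap was not computed. Antisense Gm47079 shares 511 bases with Icam1 and had at most 12 counts in a library.

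Vcam1 encodes VCAM-1, the endothelial ligand of the integrin VLA-4, which some macrophages and stromal cells also make (ENSMUSG00000027962, chromosome 3 from 115903598 to 115923337, minus strand). Values were 16.7, 29.4 and 24.5 CPM in floxed controls and 34.0, 35.6, 38.7 and 45.1 CPM in Adipoq-F2-KO 1 to 4. The genotypes were separate by 4.61 CPM, with FFA2 fl/fl 1 well below the other controls. Means were 23.5 ± 6.38 CPM (SD, n = 3) and 38.4 ± 4.94 CPM (SD, n = 4). The log2 fold change of 0.70 (SE 0.18) did not pass (edgeR adjusted p = 0.0792, exact permutation p = 0.0286), although DESeq2 called it (adjusted p = 0.00538).

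Madcam1 encodes MAdCAM-1, the ligand of integrin alpha4beta7 on venules of the gut and its lymphoid tissue (ENSMUSG00000020310, chromosome 10 from 79500393 to 79504371, plus strand). It had 0, 16 and 0 counts in floxed controls and 0, 2, 6 and 4 counts in Adipoq-F2-KO 1 to 4. Only FFA2 fl/fl 2 was clearly above the floor, at 0.403 CPM, and the gene did not reach the level needed for a test. An exact permutation test on the 7 values gave p = 0.886. A difference was not detectable at this depth.

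F11r encodes JAM-A, a tight junction protein of epithelium and endothelium that platelets also carry (ENSMUSG00000038235, chromosome 1 from 171265103 to 171292171, plus strand). It was measured at 39.7, 51.5 and 40.5 CPM in floxed controls and 56.1, 54.6, 59.2 and 80.1 CPM in Adipoq-F2-KO 1 to 4. Knockouts were higher without overlap, by 3.11 CPM at the closest, and Adipoq-F2-KO 4 was again highest. Means were 43.9 ± 6.61 CPM (SD, n = 3) and 62.5 ± 11.9 CPM (SD, n = 4). The log2 fold change of 0.51 (SE 0.15) did not pass (edgeR adjusted p = 0.118, exact permutation p = 0.0286), while DESeq2 called it (adjusted p = 0.025).

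Jam2 and Jam3 encode JAM-B and JAM-C, which bind each other across endothelial contacts. Jam2 (ENSMUSG00000053062, chromosome 16 from 84571011 to 84622816, plus strand) was at 55.7, 63.5 and 57.8 CPM in floxed controls and 68.6, 64.3, 59.0 and 103 CPM in Adipoq-F2-KO 1 to 4. Adipoq-F2-KO 3 lay within the control range and only Adipoq-F2-KO 4 was far above it. Jam2 had a log2 fold change of 0.32 (SE 0.17, edgeR adjusted p = 0.345, exact permutation p = 0.2), which was 0.12 without Adipoq-F2-KO 4. Jam3 (ENSMUSG00000031990, chromosome 9 from 27008680 to 27066717, minus strand) was at 3.47, 2.02 and 2.75 CPM in controls and 2.86, 4.89, 4.26 and 5.09 CPM in Adipoq-F2-KO 1 to 4. Here Adipoq-F2-KO 1 fell inside the control range and the other knockouts were above it. Jam3 had a log2 fold change of 0.64 (SE 0.28) that did not pass (edgeR adjusted p = 0.27, exact permutation p = 0.0857). Gm48796 on the opposite strand shares 1159 bases with Jam3 and had up to 22 counts in a library. Within libraries, the log2 ratios of F11r to Jam2 and of Jam3 to Jam2 differed by 0.21 and 0.35 between genotypes, with overlap for both.

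**Figure D2:**
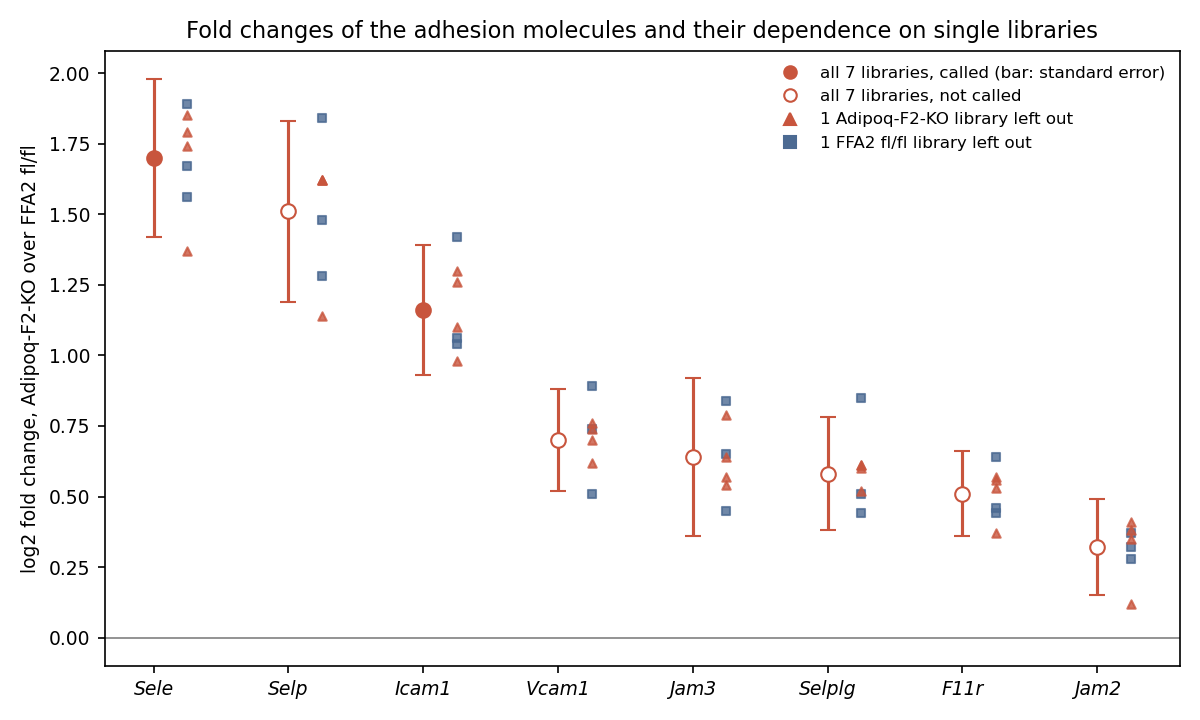
Log2 fold changes (vertical axis, Adipoq-F2-KO over FFA2 fl/fl) of the 8 tested genes with their standard errors and the values from fits that each left out a library. All lie above 0, from 0.32 for Jam2 to 1.70 for Sele, and leaving out a library moved Sele between 1.37 and 1.89 and Jam2 between 0.12 and 0.41.

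Set side by side per length, as normalized CPM per kb of exon, the transcripts fell into a similar order in both genotypes. In floxed controls the mean level per kb was 18.6 for Icam1, 16.5 for F11r, 9.76 for Jam2, 8.26 for Selp, 2.65 for Vcam1, 2.36 for Sele, 1.34 for Selplg, 0.858 for Jam3 and 0.0936 for Madcam1. Icam1 and F11r, Jam2 and Selp, Vcam1 and Sele, and Selplg and Jam3 overlapped across the control libraries as neighbours, whereas F11r lay above Jam2, Selp above Vcam1 and Sele above Selplg without overlap. In Adipoq-F2-KO libraries the mean level per kb was 41.7 for Icam1, 23.6 for Selp, 23.5 for F11r, 12.2 for Jam2, 7.68 for Sele, 4.33 for Vcam1, 2.01 for Selplg, 1.34 for Jam3 and 0.0631 for Madcam1. Selp thus stood beside F11r rather than Jam2, and Sele, at 5.19 to 12.4 per kb, was above Vcam1, at 3.83 to 5.09 per kb, in every knockout library. On this scale Cdh5 had 83.8 in controls and 126 in knockouts, and Adipoq 2610 and 2240.

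The rank of the libraries was alike for most of these genes. FFA2 fl/fl 2 held the highest control level for 7 of the 8 tested genes, all but Jam3, and Adipoq-F2-KO 4 the highest knockout level for 7, all but Selplg. Over the 7 libraries, which share the genotype split, the Pearson correlation of log2 levels was 0.98 between Sele and Selp, 0.98 between Selp and F11r, 0.93 between Sele and Icam1 and 0.25 between Selplg and Jam3. These coefficients are descriptions, given without a test. Among 13373 tested genes with at least 1 CPM on average, those whose pattern over the 7 libraries was most like Sele were Wsb1 (r = 0.9962), Rap2b (0.9940) and Flnc (0.9933). For Selp they were Entpd1 (0.9926), which encodes the endothelial ectonucleotidase CD39, Pxn (0.9910) and Aspn (0.9895). Icam1 was most like Ppp1r15a (0.9970), a stress-induced phosphatase regulator, Tgif1 (0.9943) and Marcksl1 (0.9874), and Vcam1 most like the lysozyme gene Lyz1 (0.9858), Gm16685 (0.9847) and Tmem44 (0.9846). F11r ran with Adgrl4 (0.9959), Cd93 (0.9893) and Plat (0.9880), the first pair being endothelial receptors, and Jam2 with Cyyr1 (0.9898), Arhgef5 (0.9879) and Tnfrsf21 (0.9871). Selplg was most like Agpat4 (0.9603), Mpeg1 (0.9569) and Tyrobp (0.9558), of which Mpeg1 and Tyrobp are myeloid genes. For Jam3 the nearest were Shc2 (0.9734), Limk1 (0.9675) and Ddx3y (0.9663).

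Most pan-endothelial markers had higher levels in Adipoq-F2-KO libraries, though none passed edgeR's test. Of 20 pan-endothelial markers, 19 were higher in Adipoq-F2-KO libraries and edgeR and limma voom called none (14 had an unadjusted edgeR p under 0.05, and DESeq2 called 6), with a median log2 fold change of 0.43, and their summed level was 1900 to 2480 CPM in floxed controls and 2510 to 3950 CPM in knockouts. Of all tested genes, 10.5% were higher at that unadjusted p, and DESeq2 called 4.67% of its tested genes higher. Cdh5 (log2 fold change 0.59, edgeR adjusted p = 0.123) and Pecam1 (0.51, edgeR adjusted p = 0.159) were higher without overlap, as were 8.86% of all tested genes. Each adhesion gene was therefore also expressed as a log2 ratio to that endothelial sum within its own library. For Sele this ratio was -8.41, -8.16 and -8.31 in controls and -7.58, -6.94, -7.10 and -6.76 in knockouts, a mean difference of 1.20. For Selp it was -6.33, -5.59 and -5.93 in controls and -5.20, -4.94, -4.97 and -4.49 in knockouts, a mean difference of 1.05. For Icam1 it was -4.77, -4.52 and -4.99 in controls and -4.32, -4.28, -3.62 and -4.00 in knockouts, a mean difference of 0.71. All 3 ratios were higher in every knockout library than in any control, which held for 1.71% of all tested genes.

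The remaining adhesion genes did not stand clear of the endothelial sum. The mean difference of the log2 ratio was 0.29 for Vcam1, 0.06 for F11r, -0.16 for Jam2, 0.19 for Jam3 and 0.18 for Selplg, all with overlap between genotypes. These ratios were not tested, and they describe levels relative to the marker sum only.

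**Figure D3:**
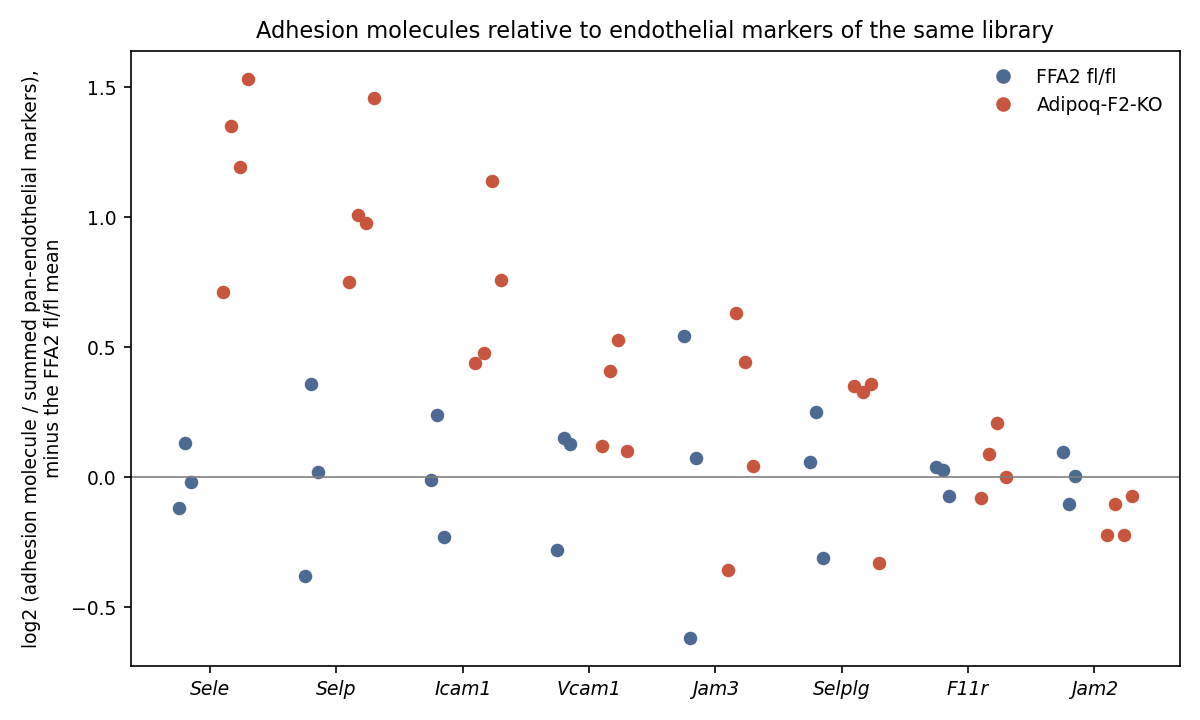
Log2 ratio of each adhesion gene to the summed pan-endothelial markers of the same library, shown as the difference from the mean of the floxed controls (vertical axis), with a point per library. For Sele, Selp and Icam1, each of the 4 Adipoq-F2-KO points lies above each control point, with mean differences of 1.20, 1.05 and 0.71, and the other genes overlap.

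Markers of other cells that make these proteins also had higher summed levels in Adipoq-F2-KO libraries, with 2 calls by edgeR, both among leukocyte and macrophage markers. Of 15 leukocyte and macrophage markers, 14 were higher in Adipoq-F2-KO libraries with a median log2 fold change of 0.61, Cd68 (0.72, edgeR adjusted p = 0.0416) and Lyz2 (0.69, edgeR adjusted p = 0.0382) were called, and the sum was 420 to 493 CPM in controls and 584 to 670 CPM in knockouts. DESeq2 called 7 of these markers and limma voom 3, all higher. At an unadjusted edgeR p under 0.05, 10 were higher and 1 lower. Over all tested genes, edgeR called 0.798% higher and DESeq2 4.67%, and 10.5% were higher at an unadjusted edgeR p under 0.05. Ptprc, the pan-leukocyte antigen CD45, had 5.39 to 14.7 CPM and 9.03 to 15.9 CPM (log2 fold change 0.52, edgeR adjusted p = 0.389). Platelet and megakaryocyte markers, of interest for Selp and F11r, summed to 6.02 to 8.88 CPM in controls and 9.18 to 15.0 CPM in knockouts, all 5 of the 10 that could be tested being higher and none called by edgeR, DESeq2 or limma voom (median 0.65, 1 with an unadjusted edgeR p under 0.05). Venous endothelial markers, of interest because selectins act in venules, summed to 252 to 348 and 355 to 425 CPM, with 5 of 5 higher and none called by these models (median 0.32, 3 with an unadjusted edgeR p under 0.05). The part of these cells in the results was not tested.

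The other lists of cells were as follows. Pericyte and smooth muscle markers summed to 712 to 838 CPM in controls and 852 to 1520 CPM in knockouts (7 of 10 higher, median log2 fold change 0.33), fibroblast progenitor markers to 1230 to 1560 and 1510 to 1810 CPM (9 of 11 higher, median 0.31), and erythroid markers to 97.6 to 224 and 209 to 372 CPM (5 of 5 tested higher, median 0.59). Adipocyte markers summed to 42600 to 47800 and 32800 to 43400 CPM (9 of 10 lower, median -0.26). Lymphatic endothelial markers were at 31.5 to 43.2 and 32.6 to 48.1 CPM (4 of 7 higher, median 0.13). Neutrophil markers were scarce, at 2.55 to 3.95 and 2.46 to 5.01 CPM, with Ly6g at 0 in every library. T, B and NK cell markers summed to 2.03 to 21.6 and 2.06 to 12.5 CPM (0 of 6 tested higher, median -0.32), mesothelial markers to 10.9 to 26.2 and 7.58 to 12.0 CPM (4 of 7 tested higher, median 0.08), and epithelial and epididymal markers to 1.99 to 53.7 and 6.27 to 20.9 CPM (0 of 7 tested higher, median -1.20, Lcn5 at 0). Germ cell markers summed to 0 to 5.29 and 3.31 to 157 CPM (5 of 5 tested higher, median 6.06). Genes that tissue dissociation induces summed to 12600 to 15700 CPM in controls and 12900 to 14400 CPM in knockouts (9 of 16 higher, median 0.02). Of 86 tested genes in these 11 lists edgeR called 0, with 17 higher and 7 lower at an unadjusted p under 0.05, while DESeq2 called 2 germ cell genes higher and 1 adipocyte gene lower and limma voom called 0. The share of all tested genes higher at that unadjusted p was 10.5%, and the lower share was not computed.

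The 5 lists of genes that work with the adhesion molecules held 86 genes in all, of which 76 were tested, 5 were called higher and none lower by edgeR (DESeq2 called 2 lower, both in the selectin ligand list). For these lists together and each list below, the share over all tested genes was 0.798% called higher and 0.217% called lower by edgeR. The list of cytokines, receptors and NF-kB genes tied to the induction of endothelial adhesion molecules also holds NF-kB inhibitors. Its 17 tested genes all had log2 fold changes above 0, with a median of 0.72 and 3 called. Of these genes, 6 were higher without overlap between genotypes, where 8.86% of all tested genes were. Tnf, the archetypal inducer of E-selectin, averaged 14.4 CPM in floxed controls and 45.0 CPM in Adipoq-F2-KO libraries (log2 fold change 1.65, SE 0.22, edgeR adjusted p = 0.0192). Il6, an inflammatory cytokine, averaged 24.2 and 67.2 CPM (log2 fold change 1.47, SE 0.23, edgeR adjusted p = 0.0332), and Nfkb2, an NF-kB subunit precursor, 55.0 and 85.1 CPM (log2 fold change 0.63, SE 0.11, edgeR adjusted p = 0.0332). Per length, the most abundant genes of that list were Nfkbia, the NF-kB inhibitor (517 and 571 CPM, edgeR adjusted p = 0.685), and Tnfrsf1a, a receptor for tumor necrosis factor (314 and 334 CPM, edgeR adjusted p = 0.649), and neither passed. Without FFA2 fl/fl 1 or 3, Tnf missed the threshold (edgeR adjusted p = 0.166 and 0.0788), as did Il6 (0.196 and 0.135) and Nfkb2 (0.201 and 0.135). Without Adipoq-F2-KO 2 or 3, Il6 (edgeR adjusted p = 0.057 and 0.0546) and Nfkb2 (0.0618 and 0.0605) missed it too, and Nfkb2 also did so without FFA2 fl/fl 2 (0.0599).

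Among the selectin ligands, their carriers and the enzymes that build their sugars, 18 of 23 genes were tested, 11 being higher and 7 lower (median 0.32 on the log2 scale). Cd44, a hyaluronan receptor that can carry E-selectin ligands, rose from 15.5 to 31.4 CPM on average (log2 fold change 1.02, SE 0.17, edgeR adjusted p = 0.0332) and was the single call, lost without FFA2 fl/fl 1 or 3 (edgeR adjusted p = 0.196 and 0.135) or Adipoq-F2-KO 2 or 3 (0.0603 and 0.0546). The most abundant per length were Chst1, a sulfotransferase, with 351 CPM in controls and 244 CPM in knockouts (log2 fold change -0.52, edgeR adjusted p = 0.0647), and St3gal3, a sialyltransferase, with 84.0 and 67.6 CPM (-0.31, edgeR adjusted p = 0.193). Both averaged lower in knockouts, yet neither passed.

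Among the integrin receptors of these ligands and their activators, all 13 genes were tested, of which 10 were higher and 3 lower (median 0.24 on the log2 scale). Itgb2, the shared beta chain of LFA-1 and Mac-1, which bind ICAM-1, rose from 18.3 to 31.2 CPM (log2 fold change 0.77, SE 0.15, edgeR adjusted p = 0.0411). Its call was lost without FFA2 fl/fl 1, 2 or 3 (edgeR adjusted p = 0.207, 0.0599 and 0.164) or Adipoq-F2-KO 2 or 3 (0.0698 and 0.0751). The broadly expressed Itgb1 (420 and 497 CPM, log2 fold change 0.24, edgeR adjusted p = 0.169) and Tln1, which encodes the integrin activator talin (458 and 423 CPM, -0.11, edgeR adjusted p = 0.554), were the most abundant per length and did not pass.

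The other adhesion and junction proteins of endothelium gave no call by edgeR or limma voom, and 4 by DESeq2, among 20 tested of 22 genes, with 16 higher, 4 lower, 9 higher and 2 lower at an unadjusted edgeR p under 0.05, and a median log2 fold change of 0.36. Of all tested genes, 10.5% were higher at that unadjusted p, and the lower share was not computed. DESeq2 called 4.67% of its tested genes higher. Aoc3, which encodes vascular adhesion protein 1 and is abundant in adipocytes, averaged 2920 CPM in controls and 2430 CPM in knockouts (-0.27, edgeR adjusted p = 0.184), and Mcam 705 and 635 CPM (-0.15, edgeR adjusted p = 0.433). Icam2 averaged 11.2 and 16.2 CPM (0.52, edgeR adjusted p = 0.246), and Icam4 was at 0 counts in every library. The proteases that shed or cut adhesion molecules gave no call by edgeR, 4 by DESeq2 and 1 by limma voom among 8 tested of 9 genes (6 higher, all with an unadjusted edgeR p under 0.05, 2 lower, median 0.56). Adam9 (168 and 163 CPM, edgeR adjusted p = 0.83) and Adam10 (46.4 and 56.0 CPM, edgeR adjusted p = 0.143) were the most abundant per length.

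**Figure D4:**
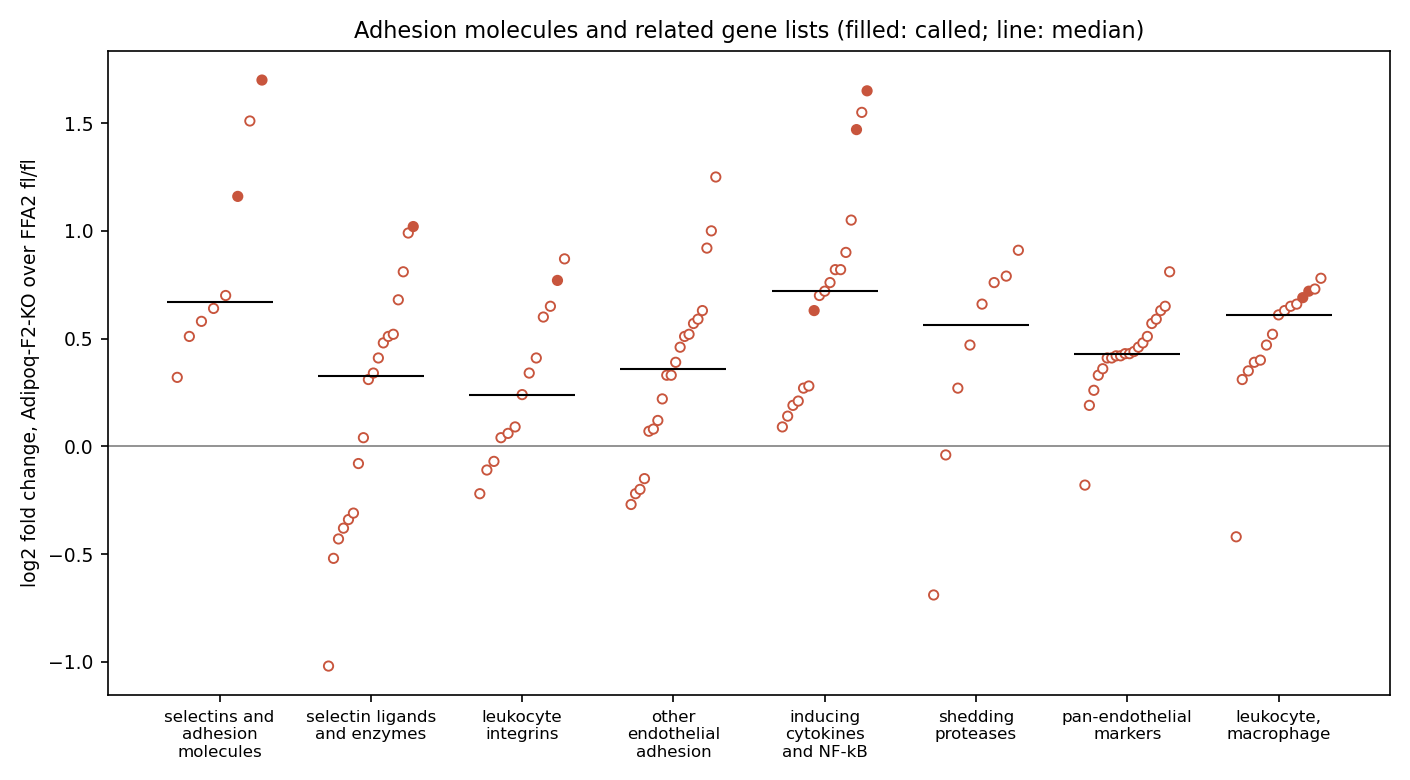
Log2 fold change (vertical axis, Adipoq-F2-KO over FFA2 fl/fl) of each tested gene in the adhesion molecule list, 5 lists of related genes and the endothelial and leukocyte marker lists, with filled points for called genes and a line at each median. Medians run from 0.24 for leukocyte integrins to 0.72 for inducing cytokines and NF-kB genes, with 0.67 for the adhesion molecules.

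How many of the 8 tested adhesion genes passed depended on the model. DESeq2 called 5 (Sele, Selp, Icam1, Vcam1 and F11r) where it called 4.67% of its tested genes higher, and edgeR run on every gene with at least 1 count in total called the same 5 where 3.76% of genes were called higher. Limma voom called Sele, Selp and Icam1, where it called 208 of all tested genes, higher or lower. The direction of all 8 log2 fold changes stayed positive in every one of these fits.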

How the data were processed

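Mature adipocyte mRNA was sequenced as paired-end 150 bp reads from TruSeq Stranded mRNA libraries, 3 of floxed controls and 4 of Adipoq-F2-KO mice. The authors trimmed with Trimmomatic, aligned with STAR and counted with featureCounts (versions and the strand option are not given in the sources used here), and the deposited values are raw counts per gene. GRCm38 and mm10 are named in the submitters' processing notes, but the deposited coordinates of 0 of the 9 genes match GRCm38, so they are given as deposited. Between 85.5% and 88.8% of counts from 1 to 49 were even, so both mates appear to have been counted. Of 57010 identifiers, 52029 had a symbol.

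Counts were filtered with filterByExpr, TMM-normalized and tested with the quasi-likelihood test of edgeR 4.0.16 in R 4.3.3 (genotype only, two-sided, Benjamini-Hochberg over 17039 genes, threshold 0.05). SE is the log2 fold change over the square root of F. Exact permutation tests were two-sided and unadjusted. Correlations used log2 levels with a prior of 0.5, and log2 ratios used no prior. DESeq2 1.42.0, limma 3.58.1, other filters and normalizations, a replicate block and leaving out each library were alternatives. Pairs of libraries of a genotype were not duplicates (chi-square over its degrees of freedom, 41.5 to 165). Fits were checked on simulated counts. The adhesion genes and the lists were chosen with earlier results of these data known. From each related list, called genes (at most 5) and the 2 most abundant per length were named, and each tested adhesion gene was given the 3 genes most like it. Icam2, Cd68, Lyz2 and genes listed at 0 lie outside that rule and were named after their values were seen. An item of the related lists is not reported here.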

Additional observations from a re-analysis of the deposited data

Results flagged for a closer look

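Selp in Adipoq-F2-KO 4 reached 175 CPM, against 79.4 to 81.9 CPM in the other knockout libraries, and is singled out, though kept in every value given above, because its gap to the nearest library took up most of the range of its group. Selplg in Adipoq-F2-KO 1 reached 9.66 CPM, against 8.14 to 8.35 CPM in the others, and met the same criterion. Chance alone gives such a gap in about 1 in 20 groups of 4. The knockout libraries were examined this way for all 9 genes, most of which ranked the libraries alike and so were not independent. The control group of 3 was not examined this way.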

How the results depend on the processing

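Of 120 values of the 8 tested genes under the alternatives, 97 kept their direction and side of the threshold, 11 newly passed, 12 no longer passed and 0 reversed. The adhesion genes called were 2 in the reported analysis, 5 with DESeq2, 5 with a filter of at least 1 count in total and 0 to 2 when a library was left out. They were 0 without FFA2 fl/fl 1, 2 or 3 or Adipoq-F2-KO 2 or 3, and 2 without Adipoq-F2-KO 1 or 4. All genes called numbered 173, and 890 with DESeq2, 1403 with at least 1 count, 272 with at least 1 CPM in 3 libraries and 1 to 178 when a library was left out (1 without FFA2 fl/fl 1, 5 without FFA2 fl/fl 3, 41 without FFA2 fl/fl 2, 11 without Adipoq-F2-KO 2, 20 without Adipoq-F2-KO 3). Genes called in the related lists numbered 5, and 23 with DESeq2, 27 with at least 1 count, 8 with at least 1 CPM in 3 libraries and 0 to 8 when a library was left out (0 without FFA2 fl/fl 1 or 3, 1 without Adipoq-F2-KO 2 or 3, 8 without Adipoq-F2-KO 1). The cause of these shifts was not tested. The log2 ratio differences to the endothelial sum, with libraries left out in an alternative chosen after seeing the data, ranged over 1.09 to 1.36 for Sele, 0.86 to 1.23 for Selp and 0.56 to 0.83 for Icam1. Correlations between the deviations of same-numbered libraries were 0.0315, -0.0242 and -0.0203. Those of differently numbered libraries ran from -0.0957 to 0.0861, so these values cannot tell whether the numbers pair the samples. A replicate block gave 224 calls over all genes, 2 adhesion genes (Sele and Selp, with edgeR adjusted p = 0.00594 and 0.019, and Icam1 at 0.0678) and 12 genes of the related lists. That fit assumes that the numbers pair the samples, which is not known. Adipoq-F2-KO 4 has no control of the same number, so it adds nothing to the genotype difference there. Depth left Madcam1 untested.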

Other observations

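Further genes of the related lists were described after their values were seen, and edgeR called none of them. Among the proteases, every Adipoq-F2-KO library exceeded every floxed control for Adam8 (means of 7.18 and 13.5 CPM, log2 fold change 0.91, edgeR adjusted p = 0.0629), Adam17, a sheddase of cell surface proteins (30.9 and 42.7 CPM, 0.47, edgeR adjusted p = 0.0824), its partner Rhbdf2 (30.4 and 48.0 CPM, 0.66, edgeR adjusted p = 0.0556) and Mmp9 (6.09 and 10.5 CPM, 0.79, edgeR adjusted p = 0.0647). Adam10, named above, also did so, making 5 of the 8 tested proteases higher without overlap, where 8.86% of all tested genes were. Elane, which encodes neutrophil elastase, was lower on average in knockouts (1.76 and 1.09 CPM, -0.69, edgeR adjusted p = 0.374). Tnfrsf1b, the second receptor for tumor necrosis factor, averaged 16.1 and 33.4 CPM without overlap (1.05, edgeR adjusted p = 0.0554), and Nfkb1 74.2 and 126 CPM (0.76, edgeR adjusted p = 0.0608).

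Genes of the selectin ligand list differed in direction. The sialomucin gene Cd34 averaged 40.6 CPM in controls and 71.4 CPM in knockouts (0.81, edgeR adjusted p = 0.098), and B4galt1, a galactosyltransferase, 59.4 and 84.5 CPM (0.51, edgeR adjusted p = 0.0608). Both were higher without overlap, as were 8.86% of all tested genes. Podxl2, which encodes endoglycan, averaged 13.7 and 6.75 CPM (-1.02, edgeR adjusted p = 0.127), St3gal4 38.5 and 30.4 CPM (-0.34, edgeR adjusted p = 0.17) and the tyrosine sulfotransferase gene Tpst2 75.8 and 58.3 CPM (-0.38, edgeR adjusted p = 0.16), all lower on average.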
